A study of Mus musculus with 16 samples.

Results

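The 10 genes described here, Lrat, Reln, Des, Acta2, Pdgfb, Pdgfrb, Tgfb1, Timp1, Lox and Vim, are genes by which hepatic stellate cells and their activation are followed. They were taken by symbol from the 41079 genes of the counts table, and all 10 are among the 16742 genes that passed the filter on low counts. Hepatic stellate cells are the vitamin A storing pericytes of the liver sinusoid. In an injured liver they lose their retinyl ester droplets, divide, become contractile and secrete matrix, a process called activation, which platelet-derived growth factor and transforming growth factor beta drive. Genes of the resting cell, such as Lrat, and genes of the activated cell, such as Acta2, are therefore not known to move in one direction.

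Liver RNA was sequenced from 4 male CRE- mice, 4 male LKO mice, 4 female CRE- mice and 4 female LKO mice, all on a C57BL/6J background and aged 20 to 22 months. CRE- mice carried floxed Gcgr alleles without Cre. LKO mice carried the same floxed alleles with Cre under the albumin promoter, which removes exons of the glucagon receptor gene in hepatocytes and leaves the gene intact in stellate cells. Each library held between 33268424 and 56488920 counted reads. Values are given in CPM, counts scaled to library totals that TMM has corrected for their composition. Xist and 4 Y-linked genes matched the labelled sex in 16 of 16 libraries.

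Gcgr (chr11:120420011-120429815, GRCm39) was at 190.4 CPM, 193 CPM, 127 CPM and 189.6 CPM in male CRE- replicates 1 to 4 and at 117 CPM, 136 CPM, 129.9 CPM and 160.35 CPM in male LKO replicates 1 to 4. The library labelled male CRE- replicate 3 lay inside the range of the male LKO mice, so Gcgr did not separate the male groups. Its log2 fold change in males was -0.37 (SE 0.24), and its edgeR p adjusted by Benjamini-Hochberg was 0.671. Without the library labelled male CRE- replicate 3 the male value was -0.51 in log2 (edgeR adjusted p = 0.792). In females Gcgr was at 162 CPM, 208 CPM, 201 CPM and 180.0 CPM in CRE- replicates 1 to 4 and at 48.8 CPM, 132 CPM, 119 CPM and 93.6 CPM in LKO replicates 1 to 4. The female groups did not overlap, with LKO lower at a log2 fold change of -0.93 (SE 0.25, edgeR adjusted p = 0.0443). Without female LKO replicate 1, the lowest, it was -0.69 (edgeR adjusted p = 0.0802). Gcgr is a hepatocyte gene, and 7 of 7 hepatocyte markers had a log2 fold change below 0 in females (median -0.76, 0 called), with their lowest sum in female LKO replicate 1, and their part in the Gcgr value was not tested. Reads of the exons that Cre leaves in place are counted too, so Gcgr is only a partial check of the labels.

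Several libraries stood apart in the stellate cell genes. Of the 10 genes, 3 were at their highest of the 16 libraries in the library labelled male CRE- replicate 3 and 6 in female LKO replicate 1. Female LKO replicate 4 had the lowest value of 3 genes (Lrat, Reln and Des) and the highest value of Timp1. Male CRE- replicate 2 had the lowest value of 5 genes, and the library labelled male CRE- replicate 3 that of 1 gene. Fits without these libraries were chosen after seeing the data or are among those that leave out each mouse, and values that moved most are given both ways.

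**Figure D1:**
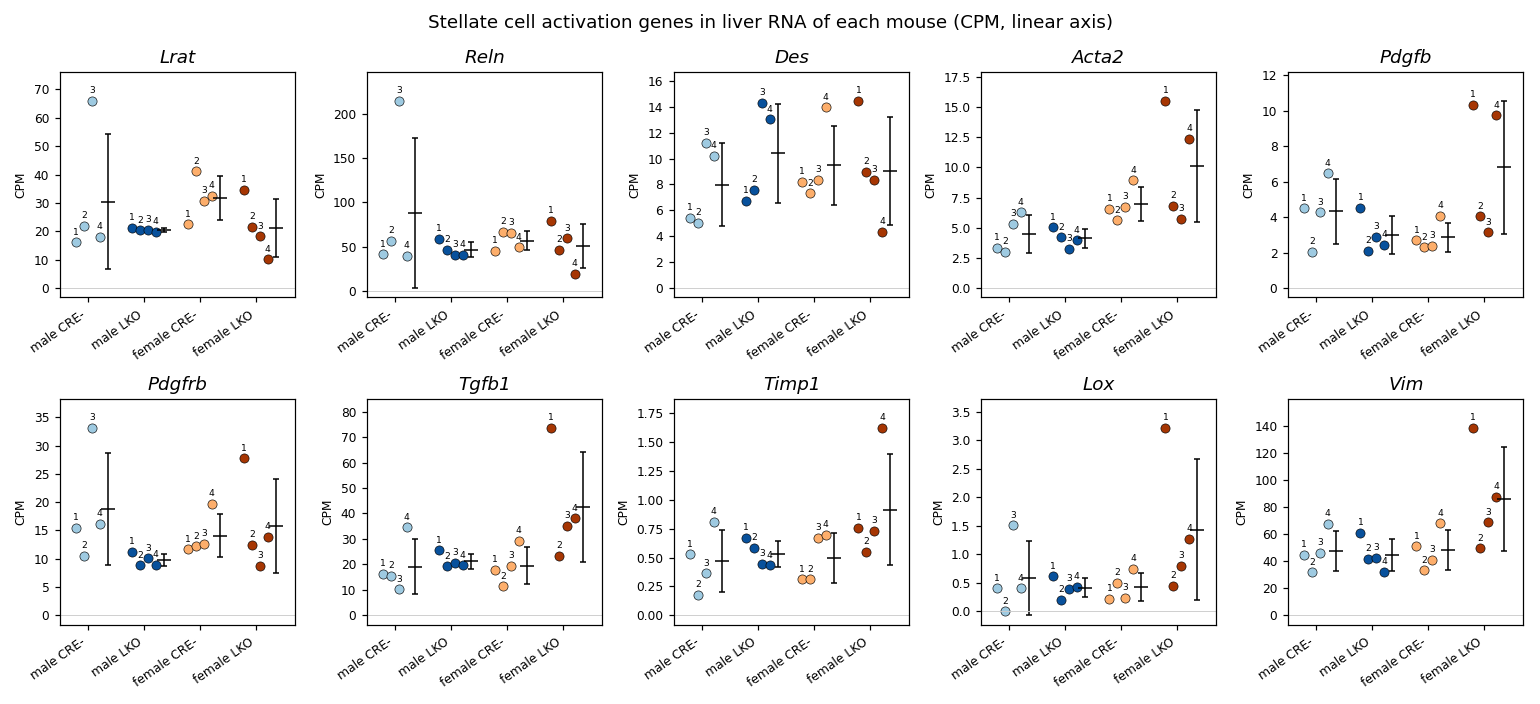
Each panel plots 1 gene, with CPM on a linear vertical axis and the 4 groups on the horizontal axis. Points are mice, numbered by replicate, and the bar beside them is the mean ± SD (n = 4). Reln reached 214 CPM in the library labelled male CRE- replicate 3, and Tgfb1 reached 73.5 CPM in female LKO replicate 1.

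Compared per kilobase of exon length, Vim, which encodes the intermediate filament vimentin, was the most abundant of the 10 genes, at a mean of 30.9 CPM per kilobase over the 16 libraries. Tgfb1 followed at 11.6 CPM per kilobase. Reln and Lrat came next at 5.18 and 4.86 CPM per kilobase and were not separable, since Reln was above Lrat in 7 of 16 libraries. Des was at 3.01 CPM per kilobase and above the next gene, Pdgfrb, at 2.39 CPM per kilobase, in 12 of 16 libraries. Pdgfrb and Acta2, at 2.26 CPM per kilobase, also changed places between mice, with Pdgfrb above in 9 of 16 libraries. Pdgfb (0.834 CPM per kilobase) and Timp1 (0.682 CPM per kilobase) were low, and Lox (0.149 CPM per kilobase) was the lowest in all 16 libraries. Counts of Timp1 were between 8 and 56 reads per library, and Lox had 0 reads in male CRE- replicate 2, which allows up to 3 fragments, or 0.134 CPM where each fragment is counted as a pair of reads, for counting error alone.

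The first comparison asks whether loss of the hepatocyte glucagon receptor went with a different level of the stellate cell genes in males. edgeR called 0 of the 10 genes at an adjusted p under 0.05, against 0.4539% of all genes tested. At an unadjusted p under 0.05 the same test gave 1 of the 10 (Pdgfrb), against 9.527% of all genes. Without the library labelled male CRE- replicate 3 it gave 0 of the 10, beside 1130 of all 17065 genes. DESeq2 called 0 of the 10, against 1.696% of the genes it tested, and limma-voom with sample quality weights called 0, against 0.8840%. LKO and CRE- values overlapped for all 10 genes, while 6.493% of all genes tested did not overlap. The median log2 fold change of the 10 genes was -0.30, with 3 above 0 and 7 below, and that of all genes tested was -0.01. Without the library labelled male CRE- replicate 3 the median of the 10 was -0.017, with 5 above 0, and without male CRE- replicate 4 it was -0.092, also with 5 above 0. By limma-voom it was 0.016, with 6 above 0.

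Lrat (chr3:82799889-82811281), the enzyme that esterifies retinol for storage, was at 16.1 CPM, 21.8 CPM, 66.0 CPM and 18.02 CPM in male CRE- replicates 1 to 4. In male LKO mice it was at 21.2 CPM, 20.4 CPM, 20.5 CPM and 19.7 CPM. The male LKO mice were close to one another, and 1 CRE- library, replicate 3, was far above all the rest. The log2 fold change was -0.57 (SE 0.40, edgeR adjusted p = 0.690), and 0.12 without the library labelled male CRE- replicate 3. Reln (chr5:22089452-22549703), a secreted glycoprotein that marks hepatic stellate cells, was at 41.2 CPM, 56.7 CPM, 214 CPM and 39.3 CPM in male CRE- mice. Male LKO mice had 59.0 CPM, 46.7 CPM, 40.4 CPM and 40.8 CPM of Reln. As for Lrat, the difference between the male group means rested on 1 CRE- library. For Reln it was -0.91 (SE 0.48, edgeR adjusted p = 0.572), and 0.02 without that library.

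Pdgfrb (chr18:61178194-61218139), the receptor through which platelet-derived growth factor acts on stellate cells, was at 15.5 CPM, 10.5 CPM, 33.1 CPM and 16.2 CPM in male CRE- mice. It was at 11.2 CPM, 8.83 CPM, 10.1 CPM and 8.94 CPM in male LKO mice. Of the CRE- mice only replicate 2 lay inside the LKO range, and replicate 3 was the highest of all. LKO over CRE- mice had a log2 fold change of -0.95 (SE 0.35, 95% interval -1.69 to -0.21, edgeR adjusted p = 0.358). Without the library labelled male CRE- replicate 3 it was -0.55, and the edgeR unadjusted p was not under 0.05. Over the 16 fits that each left out 1 mouse the edgeR adjusted p was between 0.190 and 0.888, and 15 fits had an unadjusted p under 0.05. The genes whose log2 CPM followed Pdgfrb most closely over the 16 libraries were Mov10 (Pearson r 0.921), Tent5c (0.900) and Ptpn14 (0.898), as a description of these libraries.

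Des (chr1:75336936-75345223) encodes desmin, an intermediate filament of stellate cells that skeletal and smooth muscle also make. It was at 5.44 CPM, 5.01 CPM, 11.2 CPM and 10.2 CPM in male CRE- mice and at 6.74 CPM, 7.58 CPM, 14.3 CPM and 13.02 CPM in male LKO mice. The highest male values were those of LKO replicates 3 and 4, but the groups overlapped. Des had a log2 fold change of 0.39 (SE 0.37, edgeR adjusted p = 0.775). The same libraries held skeletal muscle RNA. The summed CPM of 7 skeletal muscle markers was 152 and 81.6 in male LKO replicates 3 and 4, against 0.780 to 1.98 in the other male libraries, and their most abundant gene, Acta1, was at 38.2 CPM and 30.6 CPM. All 7 markers were detected in both libraries, and between 1 and 4 of them were at 0 in the other male libraries. Without both libraries the log2 fold change of Des in males was -0.15, and the part of muscle RNA in the value from all libraries was not tested.

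The remaining 6 genes ranged in males as follows. Acta2 (chr19:34217736-34232985), the smooth muscle actin of activated stellate cells, was between 2.99 CPM and 6.27 CPM in CRE- mice and between 3.23 CPM and 5.04 CPM in LKO mice. Pdgfb, a ligand of the receptor encoded by Pdgfrb, was between 2.05 CPM and 6.47 CPM in CRE- mice and between 2.10 CPM and 4.53 CPM in LKO mice. Tgfb1, the profibrotic cytokine, was between 10.2 CPM and 34.6 CPM in CRE- mice and between 19.3 CPM and 25.5 CPM in LKO mice. For these 3 genes the LKO range lay within the CRE- range. The LKO range of Timp1 (0.432 CPM to 0.669 CPM), an inhibitor of matrix metalloproteinases, and of Lox (0.208 CPM to 0.617 CPM), the enzyme that cross-links collagen, lay within the CRE- range as well. So did that of Vim, at 32.4 CPM to 61.1 CPM. The male log2 fold changes of these 6 genes were between -0.53 for Pdgfb and 0.18 for Timp1.

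In females the ligands and the filament gene Vim had the smallest p-values of the 10, and none passed the threshold by edgeR in the fit of 4 groups. edgeR called 0 of the 10 genes at an adjusted p under 0.05, against 4.241% of all genes tested. At an unadjusted p under 0.05 it gave 3 of the 10, Pdgfb, Tgfb1 and Vim, all higher in LKO mice, against 21.41% of all genes in either direction. Without female LKO replicate 1 it gave 2 of the 10, Pdgfb (higher) and Lrat (lower), beside 2657 of all 17029 genes, while Tgfb1 and Vim did not pass. DESeq2 called 2 of the 10, Pdgfb (adjusted p = 0.0320) and Tgfb1 (adjusted p = 0.0362), against 10.09% of the genes it tested. The limma-voom fit called 2 as well, Tgfb1 (adjusted p = 0.0204) and Lrat (adjusted p = 0.0405, lower in LKO mice), against 11.80%. With a replicate block, edgeR called Pdgfb and Tgfb1 and 1244 of all 16742 genes, though nothing in the labels says that a number marks a pair. LKO and CRE- values overlapped for all 10 genes, while 11.61% of all genes tested did not overlap. The median log2 fold change of the 10 genes was 0.69, with 7 above 0 and 3 below, and that of all genes tested was 0.04. The median of the 10 was 0.40 when female LKO replicate 1 was left out and 0.44 when replicate 4 was.

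**Figure D2:**
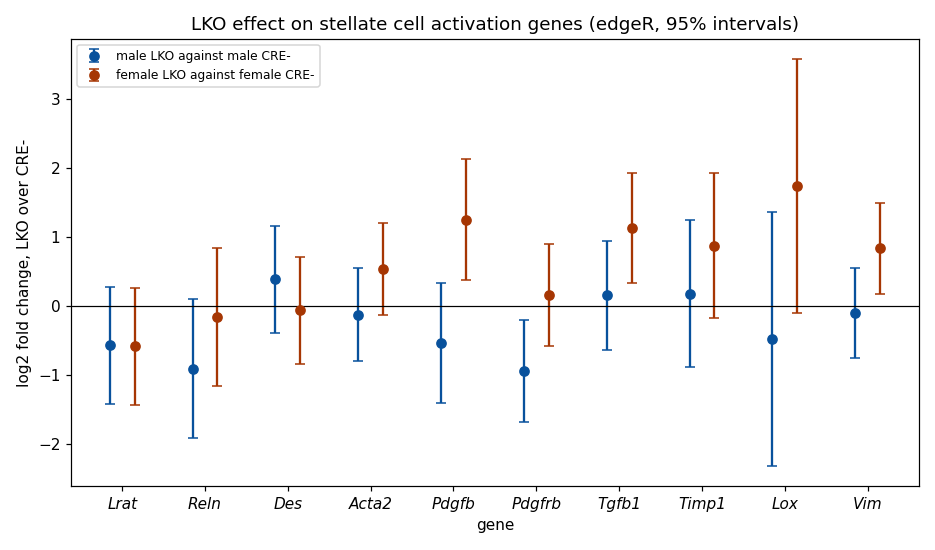
The vertical axis is the log2 fold change of LKO over CRE- mice from edgeR for each of the 10 genes on the horizontal axis, in blue for males and in brown for females. Bars are 95% intervals for each gene alone. The intervals of Pdgfb, Tgfb1 and Vim in females and of Pdgfrb in males do not include 0, and no gene had an edgeR adjusted p under 0.05.

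Pdgfb (chr15:79880066-79899178) was at 2.68 CPM, 2.30 CPM, 2.39 CPM and 4.06 CPM in female CRE- replicates 1 to 4. It was at 10.3 CPM, 4.04 CPM, 3.15 CPM and 9.75 CPM in female LKO replicates 1 to 4. LKO replicates 1 and 4 were well above every other female mouse, whereas LKO replicate 2 lay just under CRE- replicate 4 and LKO replicate 3 lay between CRE- replicates 1 and 4. For Pdgfb this is a log2 fold change of 1.25 (SE 0.41, 95% interval 0.38 to 2.13, edgeR adjusted p = 0.0903). Over the 16 fits that each left out 1 mouse it was between 0.996 and 1.49, and the edgeR adjusted p was between 0.0518 and 0.261. The genes most like Pdgfb over the 16 libraries were Tnip1 (Pearson r 0.937), Anxa1 (0.914) and Tlr7 (0.900).

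Tgfb1 (chr7:25386406-25404503) was at 17.9 CPM, 11.4 CPM, 19.4 CPM and 29.2 CPM in female CRE- mice. Female LKO mice had 73.5 CPM, 23.4 CPM, 35.1 CPM and 38.1 CPM. Only LKO replicate 2 lay inside the CRE- range. For Tgfb1 the log2 fold change was 1.13 (SE 0.38, 95% interval 0.33 to 1.92, edgeR adjusted p = 0.0924). It was 0.75 without female LKO replicate 1. Leaving out each mouse in turn gave an edgeR adjusted p between 0.0432 and 0.322. The value was under the threshold only in the fit without female LKO replicate 2.

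Because Tgfb1 was one of the genes with the smallest p-values in females, the sequence before its start is shown. Of the 10 genes, 7 had an entry among the RefSeq promoters of GRCm38.p6, and the bases before the first Tgfb1 exon of the GENCODE annotation, which starts upstream of the position given from the counts table, were matched exactly to GRCm39 at chr7:25386177-25386389, plus strand. The 213 bases are printed 5′ to 3′ with the matches of the GC box GGGCGG, on either strand, in capitals.
Tgfb1: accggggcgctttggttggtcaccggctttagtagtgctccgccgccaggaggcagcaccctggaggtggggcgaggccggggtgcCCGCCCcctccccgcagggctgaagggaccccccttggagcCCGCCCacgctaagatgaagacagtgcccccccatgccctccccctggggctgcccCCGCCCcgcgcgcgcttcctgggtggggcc
The stretch held 3 GC boxes, a motif found in 27.4% of all 32851 promoters over the same length, and 7 matches, some of them overlapping, of the NF-kB motif (GGG, any 5 bases, CC), found in 40.0%. The AP-1 motif TGANTCA, found in 5.92%, had 0 matches. These are matches of letters and not measured binding sites.

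Vim (chr2:13579122-13587637) was at 51.0 CPM, 33.2 CPM, 41.1 CPM and 67.9 CPM in female CRE- mice and at 138 CPM, 49.6 CPM, 68.6 CPM and 87.76 CPM in female LKO mice. LKO replicates 1, 3 and 4 were above all CRE- mice, replicate 3 only barely, and replicate 2 lay inside the CRE- range. The log2 fold change was 0.83 (SE 0.31, edgeR adjusted p = 0.128), and 0.53 without female LKO replicate 1.

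Lrat was at 22.4 CPM, 41.2 CPM, 30.8 CPM and 32.6 CPM in female CRE- mice and at 34.6 CPM, 21.7 CPM, 18.3 CPM and 10.1 CPM in female LKO mice. LKO replicates 2 to 4 were below all CRE- mice and replicate 1 was above 3 of them. The log2 fold change was -0.58 (SE 0.40, edgeR adjusted p = 0.437), -0.90 without female LKO replicate 1 and -0.36 when replicate 4 was left out. Reln was at 79.1 CPM, 46.2 CPM, 59.2 CPM and 19.4 CPM in female LKO mice, a range that held all 4 CRE- mice (45.3 CPM to 66.9 CPM). Its log2 fold change was -0.15 (SE 0.47, edgeR adjusted p = 0.894), -0.42 without female LKO replicate 1 and 0.12 when replicate 4 was left out. A lower level of a stellate cell gene in whole liver can come from fewer stellate cells or from less RNA per cell, and these cannot be told apart here.

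Acta2 was at 6.57 CPM, 5.61 CPM, 6.73 CPM and 8.93 CPM in female CRE- mice and at 15.5 CPM, 6.83 CPM, 5.74 CPM and 12.4 CPM in female LKO mice. LKO replicates 1 and 4 were the highest, and replicates 2 and 3 lay inside the CRE- range. Acta2 thus had a log2 fold change of 0.54 (SE 0.31, edgeR adjusted p = 0.347), and 0.28 without female LKO replicate 1. Lox (chr18:52649132-52662939) had the largest female log2 fold change of the 10, 1.74, but also the largest error (SE 0.87, edgeR adjusted p = 0.262), with 10 to 28 reads in the CRE- libraries and 18 to 128 in the LKO libraries. Without female LKO replicate 1 the log2 fold change of Lox was 0.99. Timp1 (chrX:20736524-20740972) had a log2 fold change of 0.88 (SE 0.50, edgeR adjusted p = 0.334), from 14 to 28 reads in CRE- libraries and 22 to 56 in LKO libraries, and of 0.46 without female LKO replicate 4. Pdgfrb (log2 fold change 0.16, SE 0.35) and Des (log2 fold change -0.07, SE 0.37) had female values close to 0, which were -0.25 and -0.37 without female LKO replicate 1.

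Markers of macrophages and of some other cell types also differed between the female groups. All 13 macrophage markers had an unadjusted p under 0.05 and were higher in female LKO mice, and edgeR called 3 of the 13, Adgre1 (log2 fold change 2.15), Itgam (2.57) and Trem2 (2.701), where 4.241% of all genes were called. Without female LKO replicate 1, where edgeR called 237 of all 17029 genes, it called 0 of the 13. At an unadjusted p under 0.05 that fit gave 10 of the 13, beside 2657 of all genes. Their median log2 fold change was 1.27, against 1.85 with all libraries. Their summed CPM was 3824 in female LKO replicate 1, 900.2 in replicate 2, 2023 in replicate 3 and 1154 in replicate 4, against 529 to 982 in female CRE- mice. Their most abundant gene was Cd5l, at 991 CPM in female LKO replicate 1, and none of the 13 was at 0 in any library. The neutrophil markers Mpo and Retnlg, the platelet marker Pf4 and the proliferation markers Top2a, Ccnb1, Cdk1 and Birc5 were also called and higher in female LKO mice. Leaving out female LKO replicate 1, these lists had 0 calls, but their medians stayed above 0, at 3.63 for the 8 neutrophil markers that passed the filter in that fit (3.17 for 7 with all libraries), 1.65 for proliferation (1.72) and 1.18 for platelets (1.72). Leaving out female LKO replicate 4 instead, edgeR called 404 of all 17081 genes. The neutrophil median was then 1.68 and the platelet median 1.66, with 0 calls in both lists, and 3 of the 5 proliferation markers were called. Of 10 endothelial markers 2 were called and higher, Cdh5 and Vwf, while 4 had a log2 fold change below 0, among them Tek (-0.53) at an unadjusted p under 0.05, and without female LKO replicate 1 edgeR called 0 of the 10. Of the 8 neutrophil markers 7 were tested. The summed CPM of all 8 was 128 in female LKO replicate 1 and 551 in replicate 4, against 43.9 and 65.0 in replicates 2 and 3 and 16.7 to 37.7 in female CRE- mice. S100a9 was their most abundant gene, Ly6g was at 0 in female CRE- replicates 1, 3 and 4, and Elane was at 0 in female CRE- replicate 3. Vim, Tgfb1 and Pdgfb are known to be made by macrophages, endothelium and platelets as well as by stellate cells, and the part of these cells in the values of the 3 genes was not tested.

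The 10 stellate cell markers Lrat, Reln, Des, Pdgfrb, Ecm1, Colec11, Hgf, Hand2, Ngfr and Dcn, of which 4 are among the genes described here, had 0 calls by edgeR in either sex, with 2 at an unadjusted p under 0.05 in females and 1 in males, beside 21.41% and 9.527% of all genes. Without female LKO replicate 1 there were 4 in females, beside 2657 of all 17029 genes. Their summed CPM was 397 in female LKO replicate 1, 514 in replicate 2, 518 in replicate 3 and 253 in replicate 4, against 463 to 635 in female CRE- mice. Female LKO replicate 4 was the lowest of the 16 libraries and female LKO replicate 1 was below all 4 female CRE- mice, although replicate 1 had the highest Acta2, Tgfb1 and Vim. The markers did not go one way in replicate 1. Dcn was at 115 CPM there, against 186 CPM to 227 CPM in female CRE- mice. Reln (79.1 CPM), Des (14.45 CPM) and Pdgfrb (27.8 CPM) were instead the highest of the female mice, and Lrat (34.6 CPM) lay inside the female CRE- range. Dcn was the most abundant of these markers in all groups, and none was at 0 in any library. Vascular smooth muscle, which also makes Acta2 and Des, had a summed CPM of 5 markers of 42.0 in female LKO replicate 1, against 14.6 to 20.8 in the other female LKO mice and 15.8 to 28.9 in female CRE- mice. Tagln was the most abundant of the 5, at 28.0 CPM in female LKO replicate 1, and none of the 5 was at 0. Their median log2 fold change in females was -0.13, with 2 above 0 and 3 below. The part of vascular smooth muscle in the Acta2 values was not tested.

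**Figure D3:**
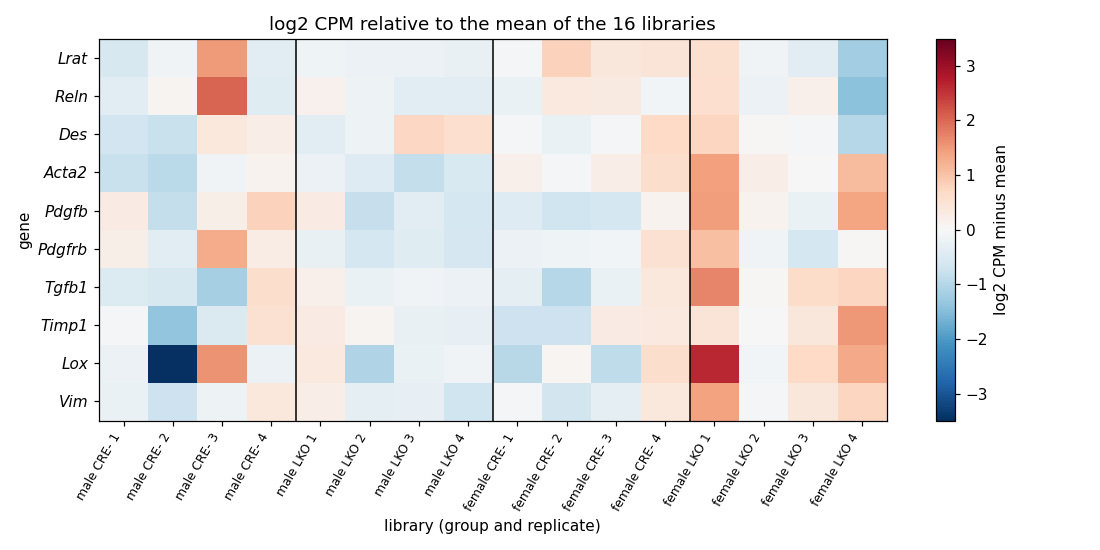
The rows are the 10 genes and the columns the 16 libraries in groups of 4. Colour gives log2 CPM (prior count 2) minus the gene's mean over the 16 libraries, with red above and blue below the mean. The library labelled male CRE- replicate 3 is most strongly red for Lrat, Reln, Pdgfrb and Lox, and female LKO replicate 1 is red for all 10 genes. Female LKO replicate 4 is blue for Lrat, Reln and Des and red for Acta2, Pdgfb, Tgfb1, Timp1, Lox and Vim.

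The difference between the sexes was tested as an interaction. edgeR called 0 of the 10 genes, against 0% of all genes tested. At an unadjusted p under 0.05 it gave 3 of the 10, Pdgfb, Pdgfrb and Vim, against 15.96% of all genes. DESeq2 called 0 of the 10, against 2.194% of the genes it tested, and limma-voom called 0, against 0.1732%. The log2 fold change of Pdgfb was higher in females than in males by 1.79 (SE 0.58, edgeR adjusted p = 0.213), that of Pdgfrb by 1.11 (SE 0.49, edgeR adjusted p = 0.293) and that of Vim by 0.93 (SE 0.44, edgeR adjusted p = 0.313). Without female LKO replicate 1 the difference was 0.70 for Pdgfrb and 0.63 for Vim. Markers of other cells had sex differences as well. An unadjusted p under 0.05 with a higher value in females was found for 7 of 7 tested neutrophil markers (median 5.40) and 5 of 5 platelet markers (median 3.06). The same held for 6 of 13 macrophage markers (median 1.67), against 15.96% of all genes. At such a p, 5 of 5 proliferation markers (median 2.07) and 4 of 5 erythroid markers (median 1.75) were higher as well. Skeletal muscle markers (6 of 7, median -9.23) and adipocyte markers (2 of 4, median -5.62) were lower at such a p. In males the muscle markers summed to 152 CPM and 81.6 CPM in LKO replicates 3 and 4, against 0.780 CPM to 1.98 CPM in the other libraries. The 2 adipocyte markers, Lep and Plin1, were at 0 in every male CRE- library. Among male LKO mice Plin1 was detected in replicates 3 and 4 alone, and Lep in replicate 4 alone. In males the neutrophil markers summed to 80.5 CPM, 20.7 CPM, 16.9 CPM and 149 CPM in CRE- mice and 13.1 CPM to 27.1 CPM in LKO mice, with Ly6g at 0 in all 4 LKO mice. Platelet markers, Pf4 among them, summed to 8.11 CPM to 21.4 CPM in male CRE- mice and 6.83 CPM to 13.3 CPM in male LKO mice. They summed to 4.65 CPM to 9.49 CPM in female CRE- mice and 8.18 CPM to 42.4 CPM in female LKO mice. Gp1bb was at 0 in male LKO replicate 2 and female CRE- replicate 3, and the part of these cells in the differences was not tested. Over the 16 fits that each left out 1 mouse an unadjusted p under 0.05 was kept in 16 for Pdgfb, 8 for Pdgfrb and 5 for Vim. The median difference over the 10 genes was 0.85, and that over all genes tested was 0.04. Without the library labelled male CRE- replicate 3 and female LKO replicate 1 the median over the 10 genes was 0.36.

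Male and female CRE- mice were compared to describe the starting level. edgeR called 0 of the 10 genes, against 0.9198% of all genes tested, and at an unadjusted p under 0.05 it gave 0 of the 10, against 12.67%. The latter count was 1 without the library labelled male CRE- replicate 3 (Lrat, beside 1453 of 17065 genes). It was also 1 without male CRE- replicate 4 (Acta2, beside 2931 of 17075) or female LKO replicate 1 (Acta2, beside 2646 of 17029). By limma-voom Lrat and Acta2 had such a p, beside 2723 of 16742 genes. DESeq2 called 0 of the 10, against 2.653% of the genes it tested, and limma-voom called 0, against 1.965%. Acta2 had the smallest p of the 10, at 6.96 ± 1.40 CPM (SD, n = 4) in female and 4.48 ± 1.57 CPM (SD, n = 4) in male CRE- mice. The log2 difference was 0.64 (SE 0.32, edgeR adjusted p = 0.418).

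Genes that act with these 10 were described from lists. Among 10 tested genes of retinoid handling, the pathway in which Lrat works, edgeR called 4 in females, all lower in LKO mice, and 0 in males, where 4.241% and 0.4539% of all genes were called. The 4 were Cyp26a1, which breaks down retinoic acid (log2 fold change -1.46, SE 0.37, adjusted p = 0.0395), Rdh11 (-0.92, SE 0.24, adjusted p = 0.0412) and Rdh10 (-0.56, SE 0.15, adjusted p = 0.0433), which interconvert retinol and retinal, and Stra6l, a receptor for retinol-binding protein (-0.89, SE 0.21, adjusted p = 0.0293). None of the 4 had overlapping female groups, but without female LKO replicate 1 edgeR called 0 of the 10 and 237 of all 17029 genes. The same number of the 10, 5, had an unadjusted p under 0.05 with and without that library, beside 3584 of 16742 genes with it and 2657 of 17029 without it. The median log2 fold change of the 10 was -0.49 with it and -0.65 without it. These genes are expressed by hepatocytes as well as by other liver cells. The summed CPM of 7 hepatocyte markers, with Alb the most abundant and none called, was 72678 ± 18756 (SD, n = 4) in female LKO and 116679 ± 9741 (SD, n = 4) in female CRE- mice, and its part was not tested.

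Of 15 other stellate cell markers edgeR called 0 in either sex, and of all genes tested it called 4.241% in females and 0.4539% in males. Among the 15, Colec11 (female log2 fold change -0.74, adjusted p = 0.0679) and Angptl6 (female log2 fold change -0.92, adjusted p = 0.0730) came closest. Of 13 contractile and myofibroblast genes, the group of Acta2 and Des, it called 0 as well, with the smallest p for Tpm2 in males (log2 fold change 1.83, adjusted p = 0.156) and Actn1 in females (log2 fold change 1.08, adjusted p = 0.0881). Of 5 other ligands and receptors of platelet-derived growth factor it called 0, and Pdgfc (female log2 fold change 1.03, adjusted p = 0.252) and Pdgfa (female log2 fold change 0.80, adjusted p = 0.313) came closest.

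Among 21 other ligands, receptors and SMADs of the transforming growth factor beta pathway, edgeR called 2 in females and 0 in males, beside the 4.241% and 0.4539% of all genes. Tgfbr2, a receptor of the Tgfb1 product, was higher in female LKO mice (log2 fold change 1.07, SE 0.28, adjusted p = 0.0431), and Ltbp4, which binds the latent cytokine in the matrix, was lower (log2 fold change -0.63, SE 0.16, adjusted p = 0.0418). Of 8 target genes of the pathway, edgeR called 1 in females, Ccn2, a matricellular protein (log2 fold change 1.77, SE 0.46, adjusted p = 0.0414), and 0 in males. The median log2 fold change of the 8 was 0.51 in females and -0.41 in males, but 0.19 without female LKO replicate 1 and 0.044 without the library labelled male CRE- replicate 3. None of these 3 genes was called without female LKO replicate 1. Tgfbr2 values overlapped between the female groups, while those of Ltbp4 and Ccn2 did not.

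Of 12 tested matrix proteases and other inhibitors of the Timp1 family, edgeR called Mmp8, a collagenase of neutrophils, as higher (log2 fold change 3.499, SE 0.79, adjusted p = 0.0266) and Mmp19 as lower (log2 fold change -1.14, SE 0.16, adjusted p = 0.00274) in female LKO mice, and 0 in males. Of all genes 350 were called as higher and 360 as lower in females, and without female LKO replicate 1 only Mmp19 of the 12 was called. Of 13 genes of cross-linking and collagen maturation, the group of Lox, it called 0, and Bmp1 (female log2 fold change -0.61, adjusted p = 0.0582) and Loxl4 (female log2 fold change -1.39, adjusted p = 0.135) came closest. Of 15 matrix proteins it called 0 in either sex, with the smallest p for Col5a2 in females (log2 fold change 1.72, adjusted p = 0.123) and Col5a1 in males (log2 fold change -1.05, adjusted p = 0.374). In log2 fold change, 14 of the 15 were above 0 in females and 12 were below 0 in males, with medians of 0.61 and -0.55. Of all genes, 8891 were above 0 in females and 8523 below 0 in males. Without the library labelled male CRE- replicate 3 and female LKO replicate 1, 12 of the 15 were above 0 in females and 8 below 0 in males, with medians of 0.36 and -0.092. The difference between the sexes had an unadjusted p under 0.05 for 9 of the 15 matrix proteins, against 15.96% of all genes, and edgeR called 0 of these differences. Without those 2 libraries 1 of the 15 had such a p, beside 1841 of all 16945 genes.

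Several limits apply to these values. The groups hold 4 mice each, replicates differed widely, and an adjusted p above the threshold does not show that a gene was the same in LKO and CRE- mice. Whole liver RNA holds little from stellate cells, and most of the 10 genes are also made by other liver cells. Protein, retinyl ester stores and collagen were not measured, so RNA alone does not tell whether stellate cells were activated. Timp1 and Lox had few reads. Body weight, fat content and other differences between mice were not part of the fits.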

How the data were processed

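Liver RNA was poly-A selected and sequenced as read pairs. The authors aligned reads to GRCm39 with STAR 2.7.1a and counted them by strand with featureCounts of Subread 2.0.6, per the submitters' processing notes. The deposited values are the count of reads per gene, without normalization. The counting options did not join mates, and 83.7% of counts from 1 to 9 were even, so a fragment often counts as a pair of reads. Gene length in bases is the other deposited column used.

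Genes were filtered with filterByExpr (minimum count 10), scaled by TMM and fitted in 4 groups with the quasi-likelihood test of edgeR 4.0.16 in R 4.3.3, with Benjamini-Hochberg adjustment over all 16742 genes and a threshold of 0.05. CPM were computed from the counts. Log2 CPM used a prior count of 2. Alternatives were DESeq2 1.42.0, limma-voom (limma 3.58.1) with quality weights, each sex alone, RLE and upper-quartile scaling, other count filters, a replicate block and leaving out each mouse. Each replicate is a mouse, and counts of replicates differed by more than sampling noise in every pair. The steps were tested on simulated data. Members and lists were chosen with earlier results of these data known. Named genes are the 10 genes, Gcgr, called genes of each list (or the 2 with the smallest p), the most abundant marker of each cell type, the 3 genes most correlated with Pdgfrb and Pdgfb, Xist as the sex check, the full stellate cell marker list, and markers at 0 or against the direction of their list (Ly6g, Elane, Gp1bb, Tek). No same-strand exon of another gene overlapped the 10 genes. The floor beside a count of 0 covers counting error only, and depth limits Timp1 and Lox most.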

Additional observations from a re-analysis of the deposited data

Results flagged for a closer look

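Of 40 groups of 4 mice, 10 genes in 4 groups, 4 had a mouse whose gap to the nearest other mouse passed the critical share of the group's range in Dixon's test. The test's rate of about 1 in 20 holds for independent, normally distributed values. These are linear CPM of genes from the same mice, and the share over all genes was not computed. No excess can therefore be read from the count. The flagged values lay in the library labelled male CRE- replicate 3 and in female CRE- replicate 4. Lrat was at 65.96 CPM in the library labelled male CRE- replicate 3, against 21.83 CPM in the next mouse, and Reln was at 214.2 CPM in that library, against 56.65 CPM. Des was at 13.95 CPM in female CRE- replicate 4, against 8.38 CPM, and Pdgfrb was at 19.67 CPM in that library, against 12.69 CPM. In female CRE- replicate 4 the summed CPM of 7 skeletal muscle markers was 32.8, with Acta1, the most abundant, at 10.9 CPM, none at 0, and 1.13 to 8.83 in the other female CRE- mice. Its part in the Des value was not tested.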

How the results depend on the processing

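Without the library labelled male CRE- 3 and female LKO 1, chosen after seeing the data, male log2 fold changes were 0.13 for Lrat, 0.023 for Reln, -0.068 for Tgfb1 and 0.59 for Lox, that of Pdgfrb in females was -0.25, the sex difference of Reln was -0.44, and 361 genes were called in females. Without male LKO 3 and 4, also chosen after seeing the data, male values were -0.15 for Des, 0.048 for Acta2 and 0.11 for Vim, the sex difference of Des was 0.080, and edgeR called 22 genes in males and 300 in females. DESeq2 called 335 genes in males and 1795 in females, with 2 of the 10 genes in females, and its sex difference of Lrat was 0.0184, against 0.018 with RLE normalization and 0.0258 with at least 10 counts in every library. limma-voom called 148 genes in males and 1976 in females, with 2 of the 10 genes in females, and gave 0.0066 for Lrat, 0.026 for Acta2 and 0.72 for Lox in males, -0.22 for Pdgfrb in females and -0.15 for the sex difference of Reln. Each sex fitted alone gave 119 genes in females.

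The mice share replicate numbers, and nothing in the labels says that a number marks a pair. Deviations from the group means correlated between same-numbered mice with r from -0.01 to 0.17, over 0.1 in 3 of 4 pairs of each sex, and 4 of 8 mice correlated best with their own number, a hint from the data and not the design. With the replicate block edgeR called 1244 genes in females and 2 of the 10 genes, Pdgfb (adjusted p = 0.0453) and Tgfb1 (adjusted p = 0.0482), and Des in females was 0.0095.

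Leaving out 1 mouse at a time, edgeR called 26 to 111 genes in males, 87 to 1310 in females, and 0 to 1 of the 10 genes in females. Male log2 fold changes ranged from -0.79 to 0.12 for Lrat, -1.15 to 0.018 for Reln, -0.27 to 0.085 for Acta2, -0.072 to 0.61 for Tgfb1, -0.089 to 0.58 for Timp1, -0.89 to 0.58 for Lox and -0.31 to 0.12 for Vim. Female values ranged from -0.42 to 0.12 for Reln, -0.37 to 0.19 for Des and -0.25 to 0.37 for Pdgfrb, and sex differences from -0.70 to 0.23 for Lrat and -0.17 to 1.04 for Reln. Of all values recomputed, 842 kept their direction and side of the threshold or, for counts, stayed within 1.5 times. Counts or ranks moved in 39, directions reversed in 40, and 7 were called only in the alternative. The cause was not tested for any of these shifts.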

Other observations

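Other cell type lists gave the following values beside those of the 10 stellate cell genes. In males edgeR called 0 genes of the lists of lymphocytes (T, NK, B and plasma cells), vascular smooth muscle, cholangiocytes, adipocytes, erythroid cells, and portal fibroblasts and mesothelium, and in females 0 as well. Of all genes tested it called 0.4539% in males and 4.241% in females. Erythroid markers had a summed CPM of 347 ± 126 (SD, n = 4) in male LKO and 748 ± 213 (SD, n = 4) in male CRE- mice, and 4 of 5 were lower at an unadjusted p under 0.05, against 9.527% of all genes. In the same comparison 7 of 7 tested neutrophil markers had a log2 fold change below 0 (median -1.98), 5 of them at an unadjusted p under 0.05, and the median of 5 platelet markers was -1.64, with 2 at such a p. The 8 portal fibroblast and mesothelial markers, a source of matrix besides stellate cells, summed to 17.9 ± 6.21 CPM (SD, n = 4) in female LKO and 20.1 ± 2.83 CPM (SD, n = 4) in female CRE- mice. Their most abundant gene was Eln.

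Ccnb1 (log2 fold change 2.60, SE 0.58, edgeR adjusted p = 0.0256) and Birc5 (log2 fold change 1.63, SE 0.36, edgeR adjusted p = 0.0232), genes of cell division, were higher in female LKO mice. The summed CPM of 5 proliferation markers was 76.2 in female LKO replicate 1 and 14.9 in female LKO replicate 2, the highest and lowest of that group.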
